A study of Mus musculus with 2 samples.

Results

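Mast cells and basophils are rare granulocytes of the tumour, described here in 2 single-cell RNA libraries of live CD45-positive cells sorted from MB49 tumours; MB49 is a mouse bladder cancer line. Cells were taken for their protease transcripts: at least 5 UMIs (unique molecular identifiers, each counting 1 captured mRNA molecule) summed over Cpa3, Cma1, Mcpt4, Tpsb2 and Mcpt8, and at most 1 UMI over Cd3d, Cd3e and Cd3g. A cell in which Cma1, Mcpt4 and Tpsb2 together exceeded Mcpt8 was called a mast cell, and a cell with more Mcpt8 was called a basophil. The rule took 61 of 7547 kept cells of the library labelled Lcn2-ko, which were 51 mast cells, 9 basophils and 1 tie, and 74 of 7712 kept cells of the library labelled wt, which were 69 mast cells and 5 basophils. The Lcn2-ko library came from lethally irradiated female mice reconstituted with male Lcn2-KO marrow, and the wt library from such hosts given male WT marrow. Digestion was for 45 min at 37 °C in both libraries. The host genotype, age, strain and the number of animals or tumours behind each library were not given in the sources used here. These chimeras were meant to stand in for loss of Lcn2 in myeloid cells, but all marrow-derived cells carry the donor genotype and cells of the host that survive irradiation do not. Neither label was replicated, so no difference between the labels could be tested, and every interval below covers counting error only (95%, exact).

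Mast cells mature in tissues under the growth factor receptor Kit and store histamine, serotonin, the proteoglycan serglycin and large amounts of protease in secretory granules. Connective tissue mast cells of mice are known for the chymases Mcpt4 and Cma1 (mouse mast cell protease 5), carboxypeptidase Cpa3 and the tryptases Tpsb2 and Tpsab1, while Mcpt1 and Mcpt2 are the chymases of mucosal mast cells. Basophils are short-lived blood granulocytes that share the IgE receptor, the histamine enzyme Hdc and the transcription factor Gata2 with mast cells and carry Mcpt8 in place of the chymases. Long-lived tissue mast cells are known to resist irradiation, so they can persist in marrow chimeras.

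The chymase genes lie side by side on chromosome 14. In mm10, Cma1 lies at chr14:55941451-55944675 on the minus strand, Mcpt1 at chr14:56017971-56020384 on the plus strand, Mcpt2 at chr14:56042041-56044642 on the plus strand, Mcpt4 at chr14:56059629-56062313 on the minus strand and Mcpt8 at chr14:56082166-56085273 on the minus strand. The stretch with all of them spans 143.8 kb, and Gzmb follows at chr14:56258838-56262260. Of these genes, Cma1, Mcpt4 and Mcpt8 belong to the rule, so their presence in mast cells or basophils follows in part from the choice of cells. Mcpt8 UMIs were also found in cells with tumour markers (below). Mcpt1, which the rule did not use, was in a varying share of mast cells. The promoters of these 4 genes are shown. Each runs from 250 bases before to 50 after the RefSeq start (GRCm38.p6), 5′ to 3′ on the gene's own strand, with matches to the GATA motifs TGATAA or AGATAA, searched on both strands, in capitals. The windows are chr14:55944626-55944925 for Cma1, chr14:56017714-56018013 for Mcpt1, chr14:56062261-56062560 for Mcpt4 and chr14:56085148-56085447 for Mcpt8.
Cma1 promoter: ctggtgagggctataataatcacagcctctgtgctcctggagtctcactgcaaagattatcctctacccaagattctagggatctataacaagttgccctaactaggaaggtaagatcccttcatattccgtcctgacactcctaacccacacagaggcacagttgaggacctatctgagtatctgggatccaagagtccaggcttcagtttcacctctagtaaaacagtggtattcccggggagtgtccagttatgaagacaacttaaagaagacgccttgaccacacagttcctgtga
Mcpt1 promoter: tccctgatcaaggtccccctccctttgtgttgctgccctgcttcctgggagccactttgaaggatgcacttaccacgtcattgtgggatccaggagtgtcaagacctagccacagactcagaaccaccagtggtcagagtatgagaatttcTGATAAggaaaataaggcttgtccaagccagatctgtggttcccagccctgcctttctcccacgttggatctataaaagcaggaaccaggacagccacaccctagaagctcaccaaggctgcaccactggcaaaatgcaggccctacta
Mcpt4 promoter: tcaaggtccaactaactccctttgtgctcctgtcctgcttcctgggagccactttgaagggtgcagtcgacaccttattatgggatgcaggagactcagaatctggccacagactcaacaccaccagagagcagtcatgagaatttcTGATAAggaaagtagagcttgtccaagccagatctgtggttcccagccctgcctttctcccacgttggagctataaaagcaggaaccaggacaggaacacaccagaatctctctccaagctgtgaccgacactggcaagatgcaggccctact
Mcpt8 promoter: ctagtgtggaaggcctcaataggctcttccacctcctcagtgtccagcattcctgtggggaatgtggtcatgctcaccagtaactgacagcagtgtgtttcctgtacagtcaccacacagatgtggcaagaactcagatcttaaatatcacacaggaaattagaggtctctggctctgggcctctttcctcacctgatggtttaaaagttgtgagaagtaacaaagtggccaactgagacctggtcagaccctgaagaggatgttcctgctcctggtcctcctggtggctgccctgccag
The Mcpt1 and Mcpt4 windows each held 1 TGATAA, starting 99 bases before the start in Mcpt1 and 103 bases before it in Mcpt4. The Cma1 and Mcpt8 windows held neither TGATAA nor AGATAA. Other forms of the GATA motif were not searched, so these windows are not shown to lack a GATA motif. A match was present in 6115 of 32851 promoters of the same length, or 18.6%, so its presence is common. Aligned to each other, the Mcpt1 and Mcpt4 windows were identical at 254 of 300 bases (84.7%), Mcpt1 and Mcpt8 at 62.7% and Cma1 and Mcpt1 at 43.0%. Reads of related genes such as Mcpt1, Mcpt2 and Mcpt4 can be assigned to the wrong copy. How alike their transcripts are was not examined, so their separate levels carry an uncertainty that the counts do not show.

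The libraries were of like depth. The Lcn2-ko library held 7788 barcodes and 40959725 UMIs, and the wt library 7974 barcodes and 42069099 UMIs; 4 barcodes occurred in both, none of them a mast cell or basophil. Lcn2, the secreted iron-siderophore carrier targeted in the donors, was checked in the cells that express it most. Neutrophils, called by their S100a8 and S100a9 UMIs, had 39 Lcn2 UMIs in the 75 cells of the Lcn2-ko library, or 341 CPM (UMIs per 1000000 UMIs of the class; interval 243 to 466), and 115 in the 147 cells of the wt library, or 378 CPM (312 to 454). Lcn2 UMIs were thus present in cells of the library labelled Lcn2-ko, and a 3′ tag outside a deleted part would not show the deletion. Mast cells had 0 Lcn2 UMIs in 51 Lcn2-ko cells and 1 UMI in 69 wt cells, and basophils had 0 in both libraries, so Lcn2 was not detectable in either cell type at this depth.

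The mast cells matched their label on genes that the rule did not use. Of 15 mast cell markers outside the rule, 15 had UMIs in the Lcn2-ko mast cells and 14 in the wt mast cells, and 13 and 11 of them were at least 10-fold above the other kept cells of their library. Among those, Tph1, the serotonin-forming hydroxylase, stood at 1667 CPM in Lcn2-ko mast cells, against 2.66 CPM in the other Lcn2-ko cells, and at 1717 CPM in wt mast cells, against 2.25 CPM in the other wt cells. Mrgprb2, the receptor for basic secretagogues, stood at 525 CPM in Lcn2-ko and 696 CPM in wt mast cells, against 0.696 and 1.04 CPM in the other cells of the same libraries. Kit itself stood at 1365 CPM in Lcn2-ko and 1484 CPM in wt mast cells, against 35.1 and 39.0 CPM in the other cells of the same libraries. Markers of other lineages were low: the defining T, B, NK, macrophage, dendritic and eosinophil lists summed to between 7.19 and 216 CPM in Lcn2-ko and between 5.17 and 212 CPM in wt mast cells. The T cell list includes Cd3d, Cd3e and Cd3g, which the rule itself limits, so its low sum follows in part from the choice of cells. The neutrophil list summed to 5304 CPM in Lcn2-ko and 5854 CPM in wt mast cells, of which Hdc, a gene of both cell types, made 5178 and 5681 CPM. The megakaryocyte and platelet list summed to 226 CPM in Lcn2-ko and 269 CPM in wt mast cells, and Itga2b made all but 5.17 CPM of the wt sum and the whole Lcn2-ko sum. The tumour and stromal list summed to 726 CPM in Lcn2-ko mast cells and 189 CPM in wt mast cells, and a single Lcn2-ko cell held 142 of the 202 UMIs behind the Lcn2-ko sum.

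A few cells went against the label. The Lcn2-ko cell just named had 6 UMIs of the rule genes, 0 Kit and 0 Gata2 UMIs, and 62 Sox9 UMIs. A wt cell had 9 rule UMIs, 0 Kit UMIs, 505 UMIs of MHC class II genes and 24 of dendritic cell markers. Another wt cell combined 52 rule UMIs and 4 Kit UMIs with 33 C1q and 110 MHC class II UMIs. Among the cells at the threshold of 5 UMIs, 6 of the 9 Lcn2-ko cells and 2 of the 5 wt cells with 5 to 9 rule UMIs carried at least 10 tumour or stromal UMIs. Just outside it, at 3 or 4 UMIs, the numbers were 24 of 30 Lcn2-ko and 21 of 23 wt cells. At 30 or more rule UMIs, 46 of 48 Lcn2-ko and 65 of 66 wt cells had a Gata2 UMI, against 0.785% and 0.851% of non-member cells without tumour markers, and none was tumour-marked. The limit on Cd3 left out 7 Lcn2-ko and 12 wt cells that otherwise met the rule, with medians of 467 and 276 rule UMIs; 6 of the 7 and 9 of the 12 were mast-like cells with Gata2 UMIs, and 0 of the 7 and 2 of the 12 had more Mcpt8 together with Gata2 and Hdc UMIs, the profile of the basophils below.

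Mast cells made up 0.676% of kept cells in the Lcn2-ko library (51 of 7547, interval 0.504 to 0.888%) and 0.895% in the wt library (69 of 7712, 0.697 to 1.13%). The difference was -0.219 percentage points, with a Newcombe interval of -0.505 to 0.0635, an interval that holds 0. Basophils by the rule made up 0.119% of Lcn2-ko kept cells (9 cells) and 0.0648% of wt kept cells (5 cells), a difference of 0.0544 points (-0.0492 to 0.168). Shares of sorted cells also depend on what the sort let through. Outside the rule, 1625 of the Lcn2-ko and 1761 of the wt kept cells carried at least 10 tumour or stromal marker UMIs. The shares are therefore of all kept cells and not of leukocytes alone.

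Granule proteases were the leading transcripts of the mast cells. The 5 rule genes alone held a median of 6.97% of the UMIs of a Lcn2-ko mast cell and 6.28% of a wt mast cell. That is how the cells were chosen, so these levels are a description. UMIs count the 3′ ends of molecules, so levels of different genes can be set side by side, within the limit on related proteases given above. The highest protease was Mcpt2, which the rule did not use, at 25878 CPM in Lcn2-ko and 22952 CPM in wt mast cells. Mcpt4 stood at 22199 CPM in Lcn2-ko and 20581 CPM in wt, Tpsb2 at 21527 CPM in Lcn2-ko and 19642 CPM in wt, Cpa3 at 19195 CPM in Lcn2-ko and 20922 CPM in wt, and Cma1 at 15221 CPM in Lcn2-ko and 13845 CPM in wt. Mcpt1 reached 8455 CPM in Lcn2-ko and 7980 CPM in wt mast cells, and Tpsab1, the alpha/beta-1 tryptase, 2354 CPM in Lcn2-ko and 2273 CPM in wt. The gene order by level was thus Mcpt2, Mcpt4, Tpsb2, Cpa3, Cma1, Mcpt1, Tpsab1 in the Lcn2-ko library, and in the wt library Cpa3 moved to the place above Mcpt4. Some neighbours in that order did not differ beyond counting error: in wt mast cells the Cpa3 interval was 20469 to 21383 CPM, which holds the Mcpt4 level of 20581 CPM. Of the remaining family members, Mcpt9 had 1 UMI in Lcn2-ko and 3 UMIs in wt mast cells. Prss34, a tryptase of basophils and some mast cells, had 17 UMIs in 1 Lcn2-ko cell and 28 UMIs in 3 wt cells. Outside the members, T cells gave the background of free RNA and doublets: a Mcpt4 UMI was found in 3.77% of Lcn2-ko and 4.24% of wt T cells, whose median depth was 3301 UMIs in Lcn2-ko and 3286 in wt. Mast cells were deeper, with medians of 5296 UMIs in Lcn2-ko and 5241 in wt.

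The proteases varied between mast cells in unlike ways. Mcpt4 ranged from 0 to 52.5 UMIs per 1000 UMIs of the cell in the Lcn2-ko library, with a median of 22.5, and from 0.376 to 50.2, with a median of 19.2, in the wt library. Mcpt2 ranged from 0 to 81.4 (median 25.2) in Lcn2-ko cells and from 0 to 74.6 (median 21.7) in wt cells. Mcpt1 was the uneven one: its lower quartile was 0.443 and its upper quartile 13.9 per 1000 in Lcn2-ko cells, against 0.255 and 15.2 in wt cells. Its highest cell held 32.1 per 1000 in Lcn2-ko and 36.3 in wt. In both libraries the middle of the Mcpt1 distribution was therefore spread over more than a factor of 10, while the quartiles of Mcpt4 (14.1 and 27.9 in Lcn2-ko, 12.6 and 25.8 in wt) lay close together. A Mcpt1 UMI was present in 42 of 51 Lcn2-ko and 56 of 69 wt mast cells, against 1.22% of Lcn2-ko and 1.05% of wt T cells.

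**Figure D1:**
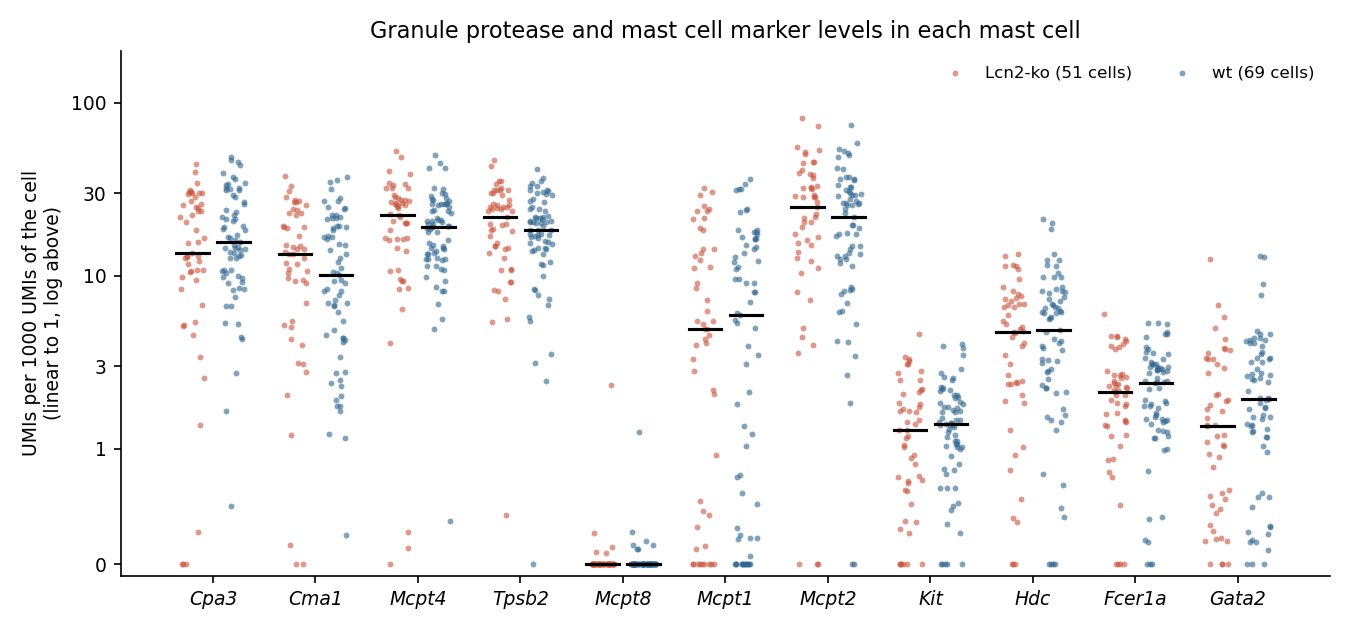
Each point is 1 mast cell, 51 of the Lcn2-ko library left of 69 of the wt library for each gene; the y axis gives UMIs per 1000 UMIs of the cell, linear up to 1 and logarithmic above, and black lines are medians. Mcpt4, Tpsb2 and Mcpt2 cells gather near their medians, Mcpt1 cells spread from 0 to 32.1 per 1000 in Lcn2-ko and 36.3 in wt, and Mcpt8 is at 0 in most cells.

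The other granule and receptor genes were those of mast cells in both libraries. Hdc, which makes histamine, stood at 5178 CPM in Lcn2-ko and 5681 CPM in wt mast cells, and Srgn, the serglycin core protein that binds the proteases, at 8581 CPM in Lcn2-ko and 8197 CPM in wt. The granule tetraspanin Cd63 stood at 6565 CPM in Lcn2-ko and 6139 CPM in wt. Of the IgE receptor, the ligand-binding chain Fcer1a stood at 2332 CPM in Lcn2-ko and 2389 CPM in wt, the beta chain Ms4a2 at 740 CPM in Lcn2-ko and 771 CPM in wt, and the shared gamma chain Fcer1g at 2149 CPM in Lcn2-ko and 2115 CPM in wt. These genes thus showed the same order of levels in both libraries. Il1rl1, the IL-33 receptor, stood at 2551 CPM in Lcn2-ko and 2780 CPM in wt, and the secretagogue receptor Mrgprb1 at 1545 CPM in Lcn2-ko and 1484 CPM in wt. Alox5, the lipoxygenase that starts leukotriene synthesis, stood at 959 CPM in Lcn2-ko, 268-fold above the other kept cells, and at 1027 CPM in wt, 234-fold above them. Among secreted factors, the monocyte chemokine Ccl7 led with 4200 CPM in Lcn2-ko mast cells, 13.7-fold above the other cells, and 4970 CPM in wt mast cells, 18.9-fold above them. Ccl2, of the same kind, stood at 1728 CPM in Lcn2-ko and 1859 CPM in wt. The type 2 cytokine Il13 stood at 352 CPM in Lcn2-ko and 504 CPM in wt, Il6 at 313 CPM in Lcn2-ko and 326 CPM in wt, and the vascular growth factor Vegfa at 755 CPM in Lcn2-ko and 737 CPM in wt. Il5 and Il9 had 0 UMIs in the mast cells of both libraries, which allows up to 3 UMIs in each sum and so says only that they were not detectable.

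Few genes differed 2-fold between all Lcn2-ko and all wt mast cells. Of 1819 genes with at least 20 UMIs over both libraries, at least 100 CPM in either and a UMI in at least 5 cells, 32 were at least 2-fold higher in Lcn2-ko mast cells (1.76%) and 25 at least 2-fold lower (1.37%), and the median log2 ratio was -0.05. Over Y-only mast cells, those with Y-linked and no Xist UMIs (26 Lcn2-ko and 31 wt cells, below), the counts were 70 of 1911 genes higher (3.66%) and 100 lower (5.23%). Over all mast cells, none of the granule lists held a gene past 2-fold: 0 of 7 measured other granule proteases, 0 of 13 amine and proteoglycan genes, 0 of 11 IgE receptor and signalling genes and 0 of 9 receptors of the growth factor and alarmin list. Their median log2 ratios were 0.08, 0.10, -0.06 and 0.02. The same held for 8 transcription factors, 5 eicosanoid genes, 10 adhesion genes, 16 immediate-early genes, 10 heat shock genes and 6 inhibitory receptors and ligands. Gata2 stood at 1991 CPM in Lcn2-ko and 2702 CPM in wt mast cells, a log2 ratio of -0.44 (-0.59 to -0.29). Fth1, the ferritin heavy chain, stood at 2540 CPM in Lcn2-ko and 1818 CPM in wt (0.48, 0.33 to 0.64), and Ftl1, the light chain, at 399 CPM in Lcn2-ko and 551 CPM in wt (-0.47, -0.81 to -0.13). The immediate-early receptor Nr4a1 stood at 2034 CPM in Lcn2-ko and 3455 CPM in wt (-0.76, -0.91 to -0.62). Of 5 measured MHC class II presentation genes 1 was lower, Ctss, which degrades the invariant chain, at 75.5 CPM in Lcn2-ko and 158 CPM in wt (-1.06). Of 7 measured basophil markers 1 was lower, Ifitm1, at 97.0 CPM in Lcn2-ko and 197 CPM in wt (-1.02).

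Cytokines and chemokines moved in both directions. Of 8 measured cytokines, 2 were at least 2-fold higher in Lcn2-ko mast cells and 1 lower, with a list median of -0.01. Il1b stood at 291 CPM in Lcn2-ko and 145 CPM in wt mast cells, a log2 ratio of 1.01, and at 0.37 with the cell highest in each gene left out of each library. Lif, a cytokine of the IL-6 family, stood at 219 CPM in Lcn2-ko and 95.7 CPM in wt, a ratio of 1.20, and of 1.06 with those cells out. Tnf, which mast cells can store and release, stood at 169 CPM in Lcn2-ko and 359 CPM in wt, a ratio of -1.09, and of -1.16 with those cells out. Of 6 measured chemokines 1 was higher, with a list median of 0.54. That gene was Cxcl2, which draws neutrophils, at 579 CPM in Lcn2-ko and 147 CPM in wt mast cells. Its log2 ratio of 1.97 (1.53 to 2.44) was 0.64 with the highest cell of each library out, since 1 Lcn2-ko cell with 105 Cxcl2 UMIs held most of the 161. That cell also had 18 UMIs of the neutrophil genes S100a8 and S100a9, against at most 3 in any other Lcn2-ko mast cell; a wt cell had 37 of them and 4 Cxcl2 UMIs. Their part in the Cxcl2 value was not tested. The macrophage chemokines were within 2-fold, Ccl3 at 643 CPM in Lcn2-ko and 406 CPM in wt (0.66) and Ccl4 at 1617 CPM in Lcn2-ko and 1042 CPM in wt (0.63).

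The genes highest over wt were largely those of single cells. The 12 named by size were Plet1, Tm4sf1, Col1a1, Col6a1, Trib1, Sox9, Hbegf, Thbs1, Col6a2, Sprr1a, Cxcl2 and Clic4. Many of them belong to epithelial or stromal cells: Col1a1, a collagen chain, stood at 489 CPM in Lcn2-ko and 54.3 CPM in wt mast cells, and 117 of its 136 Lcn2-ko UMIs came from the tumour-marked cell. Its log2 ratio was 3.17, and 0.33 without the doubted cells (1 Lcn2-ko and 2 wt cells). These were the tumour-marked Lcn2-ko cell and the wt cells with 33 C1q UMIs and with 37 S100a8 and S100a9 UMIs. Other mixed cells stayed in. They include the Lcn2-ko cells with 281 MHC class II UMIs and with 18 S100a8 and S100a9 UMIs, and the wt cell with 505 MHC class II UMIs. Sox9, a transcription factor of epithelial progenitors, went to -0.45 and Col6a1 to -0.26 without the doubted cells, against 2.40 and 2.71 with them. Plet1, a surface protein of epithelial and some dendritic cells, stood at 273 CPM in Lcn2-ko and 15.5 CPM in wt and kept a ratio of 3.72, but its 76 Lcn2-ko UMIs were nearly all from 2 cells, 38 from the tumour-marked cell and 33 from a cell with 281 MHC class II UMIs. Of the 32 genes higher in Lcn2-ko mast cells, 19 stayed at least 2-fold higher without the doubted cells and 15 with each gene's highest cell out.

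The genes lower in Lcn2-ko mast cells were spread over more cells. Of the 25, 20 stayed at least 2-fold lower without the doubted cells and 23 with each gene's highest cell out. The histone H2bc4 stood at 35.9 CPM in Lcn2-ko and 135 CPM in wt mast cells (log2 ratio -1.90, interval -3.05 to -0.91), with UMIs in 8 of 51 and 21 of 69 cells. Med13, a Mediator subunit, Jpt1, Trpc4ap, the cytochrome P450 reductase Por, the alcohol-forming Far1, Lxn, a carboxypeptidase inhibitor, Blmh and the nuclear body protein Sp100 had ratios between -1.53 and -1.14. Cd52, a small surface glycoprotein of leukocytes, stood at 248 CPM in Lcn2-ko and 636 CPM in wt (-1.36), and 87 of its 246 wt UMIs came from 1 cell. Isg15, the ubiquitin-like interferon-induced protein, stood at 111 CPM in Lcn2-ko and 264 CPM in wt (-1.24, -1.87 to -0.65), but 0.37 on the log2 scale with cells thinned to 800 UMIs; of the 18 genes of the type I interferon list it was the only one within the limits on UMIs and cells. The division marker Mki67 stood at 75.5 CPM in Lcn2-ko and 171 CPM in wt (-1.18), with UMIs in 7 of 51 Lcn2-ko and 12 of 69 wt cells. The remaining 7 measured cell cycle genes were within 2-fold, Top2a at -0.20 and Stmn1 at 0.10 among them.

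**Figure D2:**
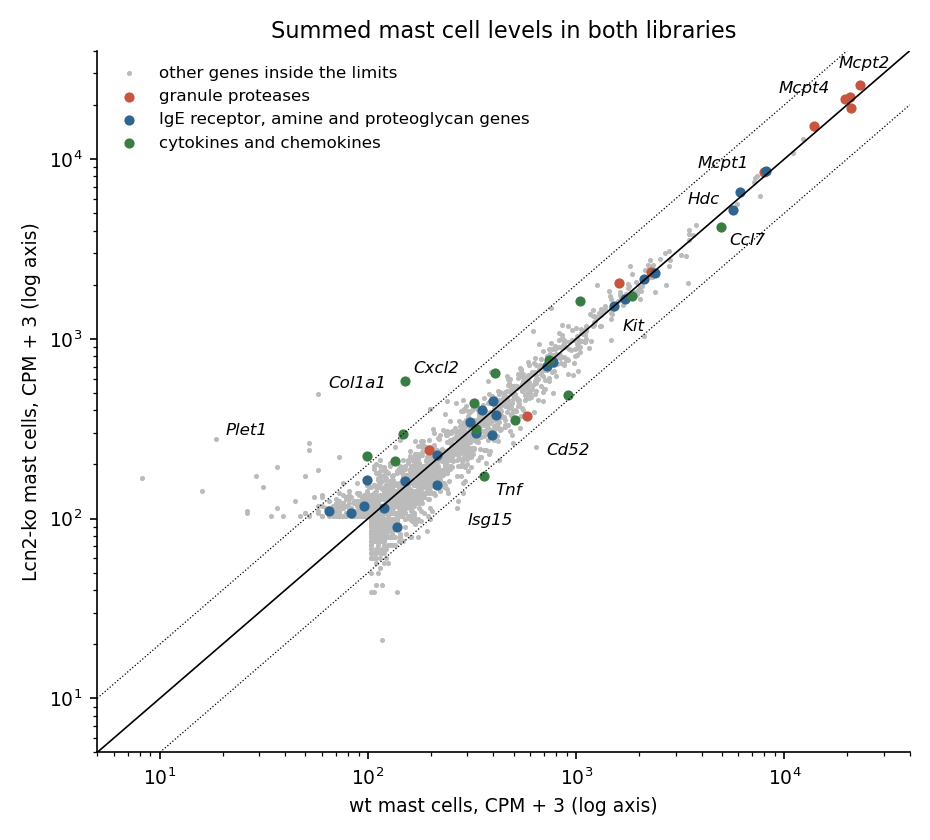
Each point is a gene inside the limits, by its summed level in the 51 Lcn2-ko mast cells (y axis) and the 69 wt mast cells (x axis), as CPM plus 3 on log axes; the solid line marks equal levels and dotted lines mark 2-fold. The proteases lie on or beside the solid line from about Mcpt1 (8455 CPM in Lcn2-ko and 7980 CPM in wt) upward, while Col1a1, Plet1 and Cxcl2 lie above the upper dotted line and Tnf, Cd52 and Isg15 below the lower one.

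Mast cells were also sorted by sex-linked transcripts, since the protocol gives female hosts and male donors. The sex label of both libraries is female and the protocol also speaks of tumours of both sexes, so a reading of these transcripts as host and donor rests on the chimera design alone. A cell with Xist UMIs and none of the Y-linked Ddx3y, Eif2s3y, Uty and Kdm5d was called Xist-only, and the reverse Y-only. Xist-only cells were 9 of 51 Lcn2-ko mast cells (17.6%, interval 8.40 to 30.9%) and 17 of 69 wt mast cells (24.6%, 15.0 to 36.5%). Y-only cells were 26 of 51 Lcn2-ko (51.0%) and 31 of 69 wt mast cells (44.9%). Both kinds of UMI were in 1 Lcn2-ko and 3 wt cells, and neither in 15 Lcn2-ko and 18 wt cells. A single UMI placed 1 of 9 Xist-only and 10 of 26 Y-only Lcn2-ko cells, and 3 of 17 Xist-only and 15 of 31 Y-only wt cells. As a background of stray UMIs, a Y-linked UMI was found in 0 of 6 Lcn2-ko and 1 of 12 wt mast cells with at least 3 Xist UMIs, and in 14.3% of 175 Lcn2-ko and 18.3% of 115 wt T cells of that kind. By the chimera design Xist is transcribed in host cells and not in donor cells, and the Lcn2 genotype of a label applies to donor-derived cells. Tumour-marked cells outside the rule were Y-only too, in 38.2% of 1625 Lcn2-ko and 41.3% of 1761 wt cells. The source of these Y-linked UMIs was not tested, so a Y-only cell is not shown to be donor-derived. In macrophages, Xist-only cells were 0.943% of 212 Lcn2-ko cells and 1.49% of 201 wt cells, at median depths of 7454 and 8033 UMIs, above those of mast cells. In neutrophils they were 0 of 75 Lcn2-ko cells, which allows up to 4.80%, and 1.36% of 147 wt cells, and in T cells they were 14.9% of 2943 Lcn2-ko and 12.04% of 2476 wt cells. When every cell was thinned to 800 UMIs, Xist-only shares were 10.6% and 10.4% of mast cells, 6.80% and 6.34% of T cells and 0% and 0.498% of macrophages, in Lcn2-ko and wt cells in this order. The order of these 3 classes was the same at this depth, and the mast cell shares of both labels lay closer together.

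**Figure D3:**
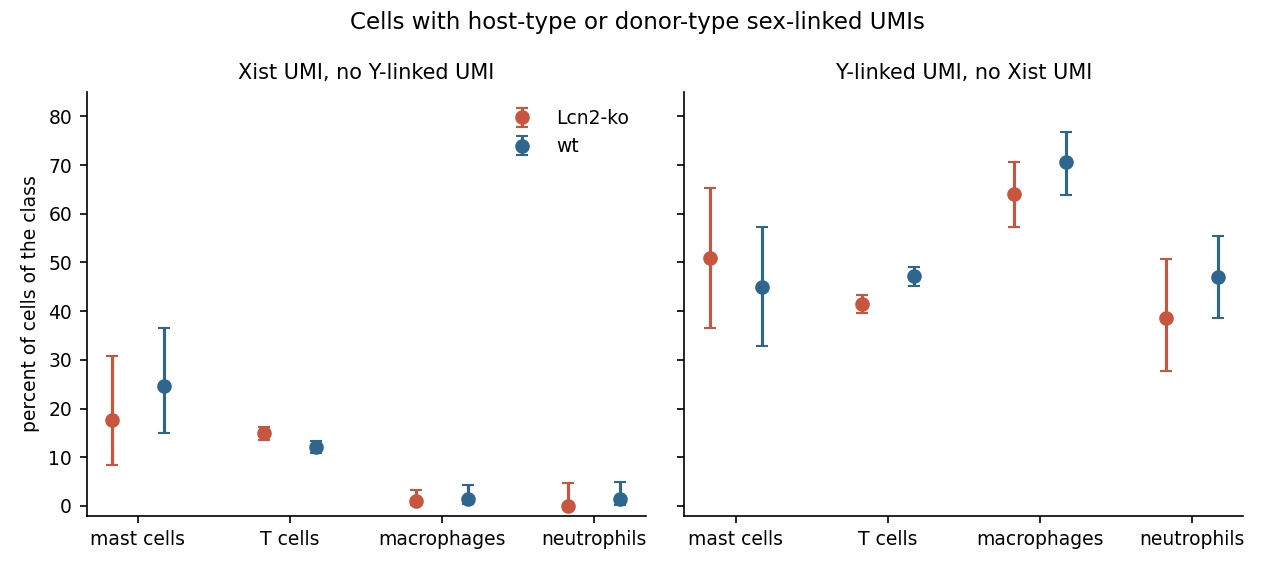
Points give the percent of cells of a class with a Xist UMI and no Y-linked UMI (left panel) or the reverse (right panel), with exact 95% intervals, Lcn2-ko beside wt. Mast cells have Xist-only shares of 17.6% and 24.6%, above the 0.943% and 1.49% of macrophages.

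Xist-only and Y-only mast cells differed in Mcpt1 in both libraries. This contrast was added after the shares had been seen, and it is within a library, so each library repeats it on its own cells. Xist-only mast cells had 2593 CPM of Mcpt1, against 11070 CPM in Y-only mast cells, in the Lcn2-ko library, and 2842 CPM against 9417 CPM in the wt library. The log2 ratios were -2.09 (-2.33 to -1.86) and -1.73 (-1.91 to -1.56). Mcpt1 UMIs were present in 4 of 9 Xist-only and 25 of 26 Y-only cells of the Lcn2-ko library, and in 9 of 17 Xist-only and 28 of 31 Y-only cells of the wt library. The single-cell ranges overlapped, with 0 to 83 UMIs in Xist-only and 0 to 192 UMIs in Y-only cells of the Lcn2-ko library, and 0 to 156 UMIs in Xist-only and 0 to 259 UMIs in Y-only cells of the wt library. At 800 UMIs a cell, Mcpt1 was present in 3 of 9 Xist-only and 22 of 26 Y-only cells of the Lcn2-ko library, and in 6 of 17 Xist-only and 22 of 31 Y-only cells of the wt library. Median depths were 7318 UMIs in Xist-only and 6420 in Y-only cells of the Lcn2-ko library, and 5880 in Xist-only and 5322 in Y-only cells of the wt library, so the Xist-only cells were the deeper ones. With only cells placed by at least 2 sex-linked UMIs, Mcpt1 had log2 ratios of -2.04 in the Lcn2-ko library (8 Xist-only and 16 Y-only cells) and -2.58 in the wt library (14 Xist-only and 16 Y-only cells).

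The other chymases did not share this. Mcpt4, whose promoter window is 84.7% identical to that of Mcpt1, stood at 29216 CPM in Xist-only and 19106 CPM in Y-only cells of the Lcn2-ko library and at 27125 CPM in Xist-only and 18083 CPM in Y-only cells of the wt library. Its log2 ratios of Xist-only over Y-only cells were 0.61 in the Lcn2-ko and 0.59 in the wt library, and ratios in the Lcn2-ko and then the wt library are given for the genes that follow. Cma1 had ratios of 0.84 and 0.97, Cpa3 of 0.73 and 0.81, Tpsb2 of 0.24 and 0.62 and Mcpt2 of -0.51 and -0.01. Set against the sum of Cma1, Mcpt4, Tpsb2 and Cpa3 in the same cell, Mcpt1 had a median of 0% in 9 Xist-only and 14.1% in 26 Y-only Lcn2-ko cells, and of 0.0754% in 17 Xist-only and 13.2% in 30 Y-only wt cells with at least 50 UMIs of the 4 proteases. The Cma1 share of that sum was 21.2% in Xist-only and 15.9% in Y-only Lcn2-ko cells, and 19.9% in Xist-only and 16.2% in Y-only wt cells. Kit, at -0.24 and -0.12, and Tpsab1, at 0.14 and 0.03, were close to equal, so mast cell transcripts differed among themselves in this contrast.

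Over all genes measured in both libraries, 21 of 1563 were at least 2-fold higher in Xist-only mast cells in both libraries (1.34%) and 37 lower in both (2.37%), while 12 were past 2-fold in opposite directions. These counts depended on depth and on the member rule: they were 2 and 6 with cells thinned to 800 UMIs, 4 and 14 at a minimum of 50 UMIs per gene, and 54 and 131 with a limit of 3 rule UMIs. Within single libraries the counts were larger, with 104 higher and 164 lower genes in the Lcn2-ko library and 57 higher and 118 lower genes in the wt library. Speer4e was at 644 CPM in Xist-only and 51.4 CPM in Y-only cells of the Lcn2-ko library and at 1126 CPM in Xist-only and 149 CPM in Y-only cells of the wt library. It had UMIs in 7 of 9 Xist-only and 1 of 26 Y-only cells of the Lcn2-ko library, and in 15 of 17 Xist-only and 6 of 31 Y-only cells of the wt library. Loxl2, a lysyl oxidase that cross-links collagen, had ratios of 3.07 and 3.31, Pla2g7, which breaks down platelet-activating factor, 2.13 and 2.47, and Igfbp5, a binding protein of insulin-like growth factors, 1.84 and 4.18. Calca, the gene of calcitonin and the neuropeptide CGRP, had 3.97 and 2.45, but its UMIs lay in 3 of 9 and 5 of 17 Xist-only cells. Further genes of the higher group were the copper transporter Slc31a2, the G protein subunits Gnai1 and Gnb2, the Notch target Hes1, the complement regulator Cd55, the adhesion molecule Cadm1 through which mast cells bind nerve and muscle cells, Ier3, Serpinb6a, Atp6v0d2, Gcsam, Bax, Plpp5, Oaf, C77080 and Il6. Their ratios lay between 1.00 and 2.54. Of these, Ier3 rested on single cells, with 58 UMIs in 1 Xist-only cell of the Lcn2-ko library and 75 in 1 of the wt library, against medians of 1 UMI in Xist-only cells of both libraries and of 1.5 and 1 UMIs in Y-only cells. Il6 was found in 3 of 9 Xist-only and 13 of 26 Y-only Lcn2-ko cells, with up to 22 UMIs in a Xist-only cell. Counting intervals included equal levels for Gnb2 in both libraries and for Plpp5 and C77080 in the Lcn2-ko library.

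On the lower side, Gzmb followed Mcpt1. Granzyme B, a serine protease of the same chromosomal cluster, stood at 377 CPM in Xist-only and 2983 CPM in Y-only cells of the Lcn2-ko library and at 748 CPM in Xist-only and 2338 CPM in Y-only cells of the wt library, ratios of -2.98 and -1.64. T cells, which make it themselves, had a Gzmb UMI in 60.9% of Lcn2-ko and 56.2% of wt cells, and the part of free T cell RNA in the mast cell counts was not tested. Scin, the actin-severing protein scinderin, had 0 UMIs in 9 Xist-only cells and 79 in 26 Y-only cells of the Lcn2-ko library, a log2 ratio of -3.43 or lower with a floor of 3 UMIs for the Xist-only sum, and 123 CPM in Xist-only against 471 CPM in Y-only cells of the wt library. The integrin Itga4 had ratios of -1.88 and -1.98, and the chemokine Ccl4 -3.74 and -2.48. Ccl4 was detected in 8 of 9 Xist-only and 19 of 26 Y-only Lcn2-ko cells. In the wt library it was in 6 of 17 Xist-only and 15 of 31 Y-only cells. Single Y-only cells held 89 of the 327 Y-only Ccl4 UMIs in the Lcn2-ko library and 51 of 156 in the wt library. The cell cycle genes Birc5 and Ube2c were lower too, at -2.17 and -1.76 and at -2.88 and -1.44, but Birc5 was detected in 2 of 9 and 2 of 17 Xist-only cells. Ube2c was in 2 of 9 Xist-only and 5 of 26 Y-only Lcn2-ko cells, and in 3 of 17 and 5 of 31 wt cells. Single Y-only cells held 23 of the 36 Y-only Ube2c UMIs in the Lcn2-ko library and 18 of 40 in the wt library. The MHC class II genes H2-Ab1, H2-Aa, H2-Eb1 and Cd74 were all lower, at -2.23 and -2.69 for H2-Ab1, yet they rested on few cells. H2-Ab1 reached 100 UMIs in 1 Y-only Lcn2-ko cell and 166 in 1 Y-only wt cell, with medians of 1 UMI in Xist-only and Y-only cells of both libraries. With the highest cell of each library out, H2-Eb1 in the wt library went to 0.30. The Lcn2-ko cell with 281 and the wt cell with 505 MHC class II UMIs were both Y-only and stayed in this contrast. The remaining named genes were Wdfy4, Man2a2, Cd52, Ppp1r2, Tspan13, Mapkapk2, Zfp703 and Nrm, with ratios between -2.96 and -1.44. In the wt library 1 cell held 87 of the 184 Y-only Cd52 UMIs, and 1 cell 15 of the 33 Y-only Wdfy4 UMIs. Cd52 was detected in 7 of 17 Xist-only and 14 of 31 Y-only wt cells. In the Lcn2-ko library the counting intervals of Tspan13, Zfp703 and Nrm included equal levels.

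**Figure D4:**
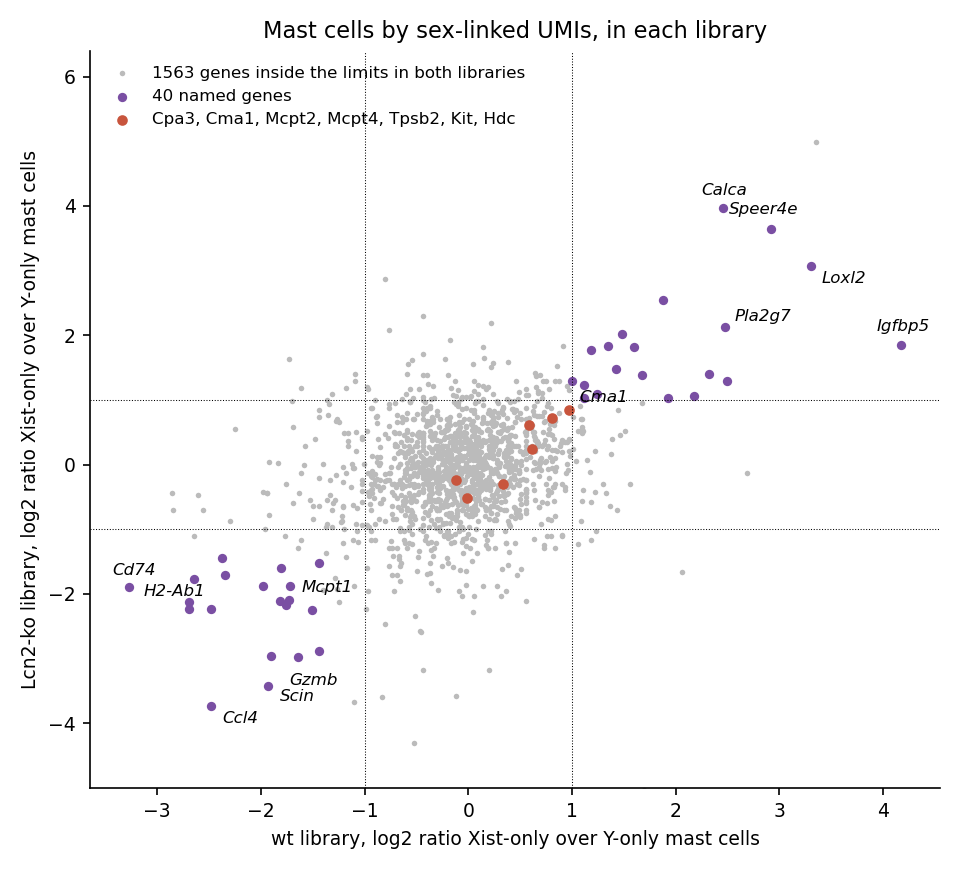
Each point is 1 of 1563 genes by its log2 ratio of Xist-only over Y-only mast cells in the Lcn2-ko library (y axis, 9 and 26 cells) and the wt library (x axis, 17 and 31 cells); dotted lines mark 2-fold. Mcpt1 and Gzmb lie in the lower left corner, at -2.09 and -1.73 and at -2.98 and -1.64, while Cpa3, Cma1, Mcpt4 and Tpsb2 lie to the upper right of the centre.

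The basophil rule took 2 kinds of cell. In the Lcn2-ko library 5 of 9 and in the wt library 3 of 5 had UMIs of both Gata2 and Hdc, and these had 1190 to 2479 UMIs in all in the Lcn2-ko and 1441 to 1567 UMIs in the wt library. The remaining 4 Lcn2-ko and 2 wt cells had 0 Gata2 and 0 Hdc UMIs. These Lcn2-ko cells had 17460 to 24047 UMIs in all, 63 to 154 of them of tumour and stromal markers and 4 to 7 of Mcpt8, and these wt cells had 14158 to 17763 UMIs in all, 82 to 94 of them of tumour and stromal markers and 3 of Mcpt8. The tied Lcn2-ko cell was like them with 79 tumour marker UMIs. A Mcpt8 UMI was found in 8.37% of 1625 Lcn2-ko and 8.18% of 1761 wt tumour-marked cells outside the rule (medians of 8973 and 8910 UMIs per cell), against 0.410% of the remaining Lcn2-ko and 0.323% of the remaining wt cells, at 3026 and 2920 UMIs. These 6 cells go against the label and were set apart. Without them basophils were 0.0663% of Lcn2-ko kept cells (5 cells) and 0.0389% of wt kept cells (3 cells), a difference of 0.0274 points (-0.0571 to 0.120). With the 2 wt cells that the limit on Cd3 left out, basophils were 5 cells in each library, a difference of 0.00142 points (-0.0934 to 0.0976).

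The 8 cells were picked by Mcpt8, Gata2 and Hdc, and their low mast cell proteases follow in part from the rule. Of 15 basophil markers outside the rule, 13 had UMIs in the Lcn2-ko cells and 11 in the wt cells, and 7 and 6 of them stood at least 10-fold above the other kept cells. Prss34, a basophil tryptase of that list, was at 0 UMIs in all 8 cells. Kit, which the rule did not use, was at 0 UMIs in all 8 cells, as were Cma1, Mcpt4 and Tpsb2. Hdc had 23, 29, 30, 25 and 37 UMIs in the 5 Lcn2-ko cells and 39, 15 and 13 in the 3 wt cells. Mcpt8 had 6, 5, 9, 11 and 24 UMIs in the Lcn2-ko cells and 6, 10 and 6 in the wt cells. The counts of both genes overlapped between the labels. Il4, the cytokine for which basophils are known, had 28, 21, 0, 0 and 9 UMIs in the Lcn2-ko cells and 0, 2 and 0 in the wt cells, and so was present in 3 of 5 and 1 of 3 cells. Fcer1a had 1 UMI in 1 cell of each library at these depths. Xist UMIs were 0 in all 8 cells, and 3 of 5 Lcn2-ko and 0 of 3 wt cells had a Y-linked UMI.

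The chemokines Ccl3 and Ccl4 were abundant in the basophils and higher in the Lcn2-ko cells. Ccl3 had 73, 107, 46, 73 and 85 UMIs in the 5 Lcn2-ko cells and 11, 21 and 18 UMIs in the 3 wt cells, and Ccl4 93, 107, 73, 84 and 107 UMIs in the Lcn2-ko cells against 7, 34 and 19 in the wt cells. Per 1000 UMIs of the cell, Ccl3 ranged from 23.4 to 61.3 in Lcn2-ko and from 7.63 to 14.1 in wt cells, and Ccl4 from 37.2 to 78.2 in Lcn2-ko and from 4.86 to 22.9 in wt cells. Each of the 5 Lcn2-ko cells was above each of the 3 wt cells. The share of mitochondrial UMIs separated the same cells, with 0.168 to 1.58% in Lcn2-ko and 1.72 to 2.15% in wt cells. The part of this in the values per 1000 UMIs was not tested. The 2 wt cells left out by the Cd3 limit had 27.4 and 7.18 Ccl3 and 29.6 and 6.82 Ccl4 UMIs per 1000, so with them Ccl3 overlapped and Ccl4 did not. Together the pair held 6.06 to 13.9% of the UMIs of a Lcn2-ko basophil and 1.25 to 3.70% of a wt basophil. The inflammatory cytokine Il1b had 13, 23, 24, 15 and 61 UMIs in Lcn2-ko and 0, 6 and 0 in wt cells, and Csf1, the macrophage growth factor, 21, 22, 34, 28 and 25 UMIs in Lcn2-ko against 5, 0 and 7 in wt cells. Il6, with 5.65 to 28.1 per 1000 in Lcn2-ko and 3.47 to 5.74 in wt cells, and Cxcl2, with 4.58 to 50.4 in Lcn2-ko and 2.78 to 8.07 in wt cells, overlapped.

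Of 93 genes with at least 20 UMIs over the 8 cells, 6 had every Lcn2-ko cell above every wt cell (6.45%), which were Il1b, Csf1, Ccl3, Ccl4, Pfn1 and Litaf, and 3 had every Lcn2-ko cell below (3.23%), which were Cebpb, Hsp90aa1 and mt-Atp6. The limit was set on the sum over the 8 cells, of which the Lcn2-ko cells held 9469 UMIs and the wt cells 4495. Genes high in Lcn2-ko cells thus passed it more easily, as Litaf did with 26 Lcn2-ko and 2 wt UMIs, so both shares cannot be compared. The transcription factor Cebpb had 0 to 2.04 per 1000 in Lcn2-ko and 3.47 to 8.07 in wt cells. These genes were picked out by looking at the cells, the cells of a library are no replicates, and the part of free RNA and doublets in the difference was not tested. With the 2 wt cells left out by the Cd3 limit, 4 of 168 genes had every Lcn2-ko cell above every wt cell (2.38%), which were Il1b, Csf1, Ccl4 and Litaf, and 4 had every Lcn2-ko cell below, Hspa8, Hsp90aa1, Rps7 and Rps14. No count of genes past 2-fold was made between basophils of both labels, with 9 and 5 cells under the rule.

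**Figure D5:**
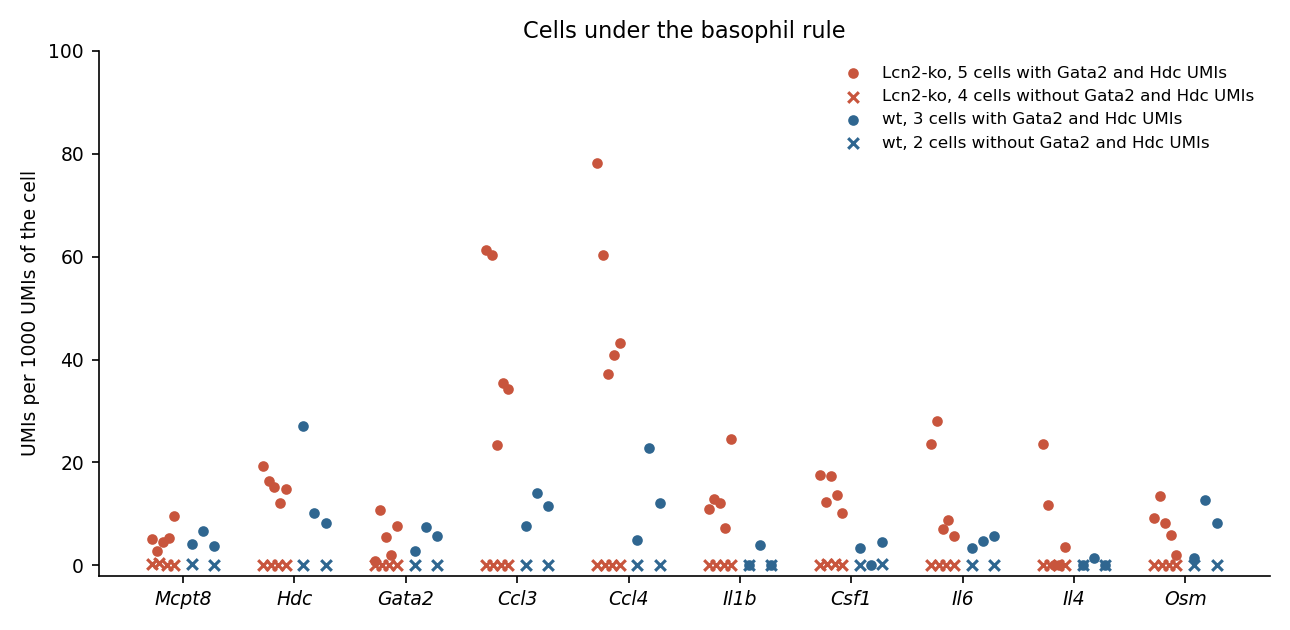
Each mark is 1 cell under the basophil rule, Lcn2-ko left of wt for each gene, with the y axis in UMIs per 1000 UMIs of the cell; dots are the 5 and 3 cells with Gata2 and Hdc UMIs and crosses the 4 and 2 cells without. The dots of Ccl3, Ccl4, Il1b and Csf1 are higher in every Lcn2-ko cell than in any wt cell, and the crosses lie at or near 0 for all genes shown. The 2 wt cells left out by the Cd3 limit are not drawn, and with them Ccl3 overlaps.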

How the data were processed

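Gene by cell tables of raw UMI counts were deposited for 2 BD Rhapsody libraries; the authors' counts are not normalized, the build is mm10 and Cell Ranger is named, per the submitters' processing notes. Cells were kept with 200 or more genes and a mitochondrial UMI share of no more than 20%. The cells were chosen by the summed UMIs of 5 proteases, and the members and gene lists were chosen with earlier results of these data known. For each class of cells the UMIs of a gene were added up and divided by the class total, as CPM. Intervals are exact Poisson, Clopper-Pearson and conditional binomial ones and, for differences of shares, Newcombe ones, at 95%; they cover counting error only. A gene was compared with at least 20 UMIs, 100 CPM in either group and UMIs in 5 cells, a sum of 0 was set to 3 UMIs, and 2-fold was the limit. Named are the 12 highest and 12 lowest Lcn2-ko over wt genes with UMIs in 5 cells of the higher library, without mitochondrial, ribosomal, receptor segment, haemoglobin, sex-linked and predicted genes, and the 20 per side of the added Xist-only contrast by the smaller ratio of both libraries; 1 gene so named is not reported here. The planned 2-fold comparisons across genes that involve basophils were not made, since 9 and 5 cells were under the minimum of 10; a description of single-cell ranges in the 5 and 3 basophils with Gata2 and Hdc UMIs was added after the cells had been seen. No doublets were removed in the main values; Scrublet through scanpy 1.11.5 set its own threshold too high to work, and the highest 4% of its scores were an alternative. The ratio step was tested on simulated data. Python 3.11.15, numpy 2.4.6, scipy 1.17.1, pandas 2.3.3 and Biopython 1.88 were used. Chromosome positions are from GENCODE for mm10 and promoters from RefSeq.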

Additional observations from a re-analysis of the deposited data

How the results depend on the processing

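No paired analysis was possible because each label had 1 library. Leaving out a replicate was not possible for the same reason. The 32 genes at least 2-fold higher in Lcn2-ko over wt mast cells became 19 with cells thinned to 800 UMIs, 18 with each gene's highest cell out, 21 at a minimum of 50 UMIs, 140 with no CPM limit, 17 without tumour-marked cells and 70 over Y-only cells. The 25 lower genes became 41 with a limit of 3 rule UMIs, 44 as a mean over cells, 43 thinned, 169 with no CPM limit, 16 with no limit on Cd3 and 100 over Y-only cells. Of the Xist-only over Y-only genes, the 21 higher in both libraries became 54 at 3 rule UMIs, 2 thinned and 4 at 50 UMIs, and the 37 lower became 131 at 3 rule UMIs, 6 thinned, 77 with the highest cell out, 14 at 50 UMIs and 24 with at least 2 sex-linked UMIs per cell. The wt Xist-only share of mast cells was 10.4% thinned and 24.6% at full depth.

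Single genes that changed sign were Col1a1 (-0.13 at 3 rule UMIs), Col6a1 (-0.10 at 10 rule UMIs, -0.11 with the highest cell out, -0.23 without tumour-marked cells, -1.48 over Y-only cells), Sox9 (-0.14 at 3 rule UMIs, -0.36 at 10, -0.29 with the highest cell out, -0.41 without tumour-marked cells, -1.06 over Y-only cells), Sprr1a (-0.81 at 3 rule UMIs), Cxcl2 (-0.02975 without the highest Scrublet scores) and Isg15 (0.37 thinned). In the Xist-only contrast they were Serpinb6a (-0.31, wt) and Oaf (-0.075, Lcn2-ko) at 3 rule UMIs, Itga4 (0.13, wt, thinned), H2-Eb1 (0.61 at 10 rule UMIs and 0.30 with the highest cell out, wt) and H2-Aa (0.075 at 10 rule UMIs, wt). The cause was not tested. The other 322 Lcn2-ko over wt and 1167 Xist-only over Y-only values moved by less than their counting interval or kept their side of 2-fold, and 47 and 70 moved without a change of sign. The shares of mast cells and basophils kept their sign under all alternatives run. Thinning leaves few UMIs per gene, and the alternatives to the basophil comparisons across all genes were not run.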
